A study of Homo sapiens with 6 samples.

Results

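Amino acids enter, leave and move within cells through solute carrier (SLC) proteins, and the data described here are the messenger RNA levels of 38 such carrier genes in HK-2, an established cell line made from the proximal tubule of a human kidney. The 38 genes were chosen by gene symbol from among the amino acid carriers of the SLC1, SLC3, SLC6, SLC7, SLC15, SLC16, SLC25, SLC36, SLC38 and SLC43 families. The deposited count table held 31369 genes and 37 of the members, 36 of them also had an FPKM value, and 31 passed the filter on low counts and were tested among 15878 genes. SLC6A19, the main brush border carrier of neutral amino acids in the kidney, was not analysed here.

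RNA from 6 samples was sequenced, 3 of a control group (NC) and 3 of a group overexpressing *PPM1K* (OE). *PPM1K* encodes a mitochondrial phosphatase that switches on the breakdown of the branched-chain amino acids leucine, isoleucine and valine. By the study's methods the gene was brought in on a plasmid with a lipid transfection reagent, and what the NC cells received was not given in the sources used here. The genotype entries give wild type for NC and *PPM1K* overexpression for OE, whereas their titles speak of short hairpins, against *PPM1K* in OE and of a control kind in NC, at day 10. All 6 samples carry chronic kidney disease as their treatment entry, and the cell line entries name HK-2 for 1 sample and HK followed by other numbers for the other 5. Nothing in the labels says that the replicates were separate cultures, so the p-values measure the spread between these samples, which may be technical.

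The deposited counts of *PPM1K* were 37, 19 and 53 in NC and 3294, 3531 and 2919 in OE, a log2 fold change of 6.39 (SE 0.13, adjusted p = 1.1e-18 by the quasi-likelihood test of edgeR), so the gene was higher in the libraries whose genotype entry names overexpression. Total counts were 34635770 to 36116963 in NC and 36033404 to 39850802 in OE. NC replicate 2 had the smallest total and yet reads on 26478 genes, against 22094 to 22913 in the other 5 libraries, and results on the tested members with a mean count under 100 are therefore also given without it. In the study's own read distribution, that library had the largest shares of intronic, intergenic and antisense reads. In each of these shares every NC library was above every OE library, which leaving out NC replicate 2 does not remove. The part of this library difference in the carrier results was not tested. Of 13 proximal tubule marker genes, 10 were analysed and 0 reached an FPKM of 1 in every sample, their summed FPKM being 0.8 to 1.1 in NC and 0.77 to 0.82 in OE. AQP1, CUBN and HNF4A were at or near 0. Of 8 markers of renal epithelium and epithelial lines, 6 reached that level (PAX8, CDH2, KRT8, KRT18, KRT19 and EPCAM). CDH1 (0.10 to 0.34) and PAX2 (0.11 to 0.19) did not. The summed FPKM of the 8 was 790 to 884 in NC and 679 to 734 in OE. Its members differed in direction. KRT8, KRT19, EPCAM and CDH1 were lower in every OE sample than in any NC sample, PAX8 and CDH2 were higher, and KRT18 and PAX2 overlapped. Markers of other cell types were low, and their sums moved with the groups. Lower in OE were the sums for fibroblasts (2.94 to 3.1 in NC, 1.1 to 1.15 in OE, from COL1A1 and LUM), leukocytes (0.23 to 0.38, 0.12 to 0.18) and the distal nephron (0.02 to 0.03, 0). Higher in OE were those for podocytes (2.17 to 2.55, 2.66 to 3.06, nearly all PODXL) and endothelium (0.56 to 0.71, 0.78 to 0.9). The part of these shifts in the carrier results was not tested. In such bulk samples fewer cells of a type and less RNA per cell cannot be told apart.

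Most carriers of the plasma membrane work as exchangers or are driven by sodium or protons. SLC7A5 and related light chains reach the cell surface only when linked to a heavy chain, SLC3A2 or SLC3A1, and exchange an amino acid inside the cell for another outside it. SLC38 and SLC1 carriers bring in the glutamine and small neutral amino acids that such exchange consumes, and SLC25 carriers move amino acids across the inner mitochondrial membrane. In the intact proximal tubule these families recover filtered amino acids from the urine. Many of their genes are known targets of the transcription factor ATF4, which binds with a C/EBP partner to a short composite DNA element.

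Matches to that element are shown here because several members were higher together, beside the share of all promoters that hold it and with no test. RefSeq promoter windows of 300 bases (250 before and 50 after a start, GRCh38.p14) were matched for 32 of the 38 members. The core TGATGNAA was searched on both strands, with N standing for any base. It was found for 6 of these 32 members, against 1217 of 27305 genes (4.46%). Genes with several starts have several windows. By window the core was in 6 of the 56 windows of the members, against 1270 of 35116 (3.62%). The 6 members were SLC1A4, SLC1A5, SLC3A2, SLC7A1 and SLC38A1, which were higher in OE, and SLC1A3, which was lower. Of all members with a window, 12 were higher and 4 were lower. The matches are given on the strand of each gene, 5′ to 3′, with the match in capitals, and the matches in SLC3A2 and SLC1A4 lie on the opposite strand.
SLC3A2: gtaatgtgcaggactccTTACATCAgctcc
SLC1A5: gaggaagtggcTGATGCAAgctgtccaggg
SLC1A4: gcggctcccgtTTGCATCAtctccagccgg
SLC38A1: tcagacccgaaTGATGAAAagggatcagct
SLC7A1: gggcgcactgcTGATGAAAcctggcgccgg
SLC1A3: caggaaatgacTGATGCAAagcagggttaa

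The SLC3A2 window (chr11:62881719-62881748, plus strand) and the SLC1A5 window (chr19:46784893-46784922, minus strand) lie in intron 1 of the main annotated transcript, at starts inside the gene. The SLC38A1 window (chr12:46266502-46266531, minus strand) lies in intron 1 as well, with its match beginning 4 bases before an inner start. Matches in SLC1A4 (chr2:64989381-64989410, plus strand) and SLC7A1 (chr13:29595663-29595692, minus strand) are in the untranslated part of exon 1. The SLC1A3 window (chr5:36596357-36596386, plus strand) lies upstream of the gene, and its match begins 220 bases before the start. A match is a description of letters and does not show that a factor binds there.

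Of the other motifs searched, the antioxidant response element core TGACNNNGC was in 16.1% of all genes with a window and in 10 of the 32 members, of which 5 were higher, 1 was lower and 4 passed no threshold. The E-box CACGTG was in 8.77% of all genes with a window and in 10 of the 32 members. Of these 10, 4 were among the 12 higher members with a window (SLC36A1, SLC25A22, SLC7A5 and SLC1A5). The E-box was in 0 lower members, and the other 6 passed no threshold or were not tested. The cAMP response element TGACGTCA was in 2.25% of genes and in 0 members. The 32 members had 56 windows, some genes having several starts, and a gene with more windows has more room for a match. By window TGACNNNGC was in 10 of the 56, against 13.3% of all windows. The E-box was also in 10 of the 56, against 7.26% of all windows. In SLC25A13 the E-box and the TGACNNNGC match overlap. SLC7A5, the member with the smallest adjusted p, held an E-box 130 bases before its start and a TGACNNNGC match across the start, both in capitals in the stretch chr16:87869501-87869657 (minus strand, 150 bases before the start to 7 after).
SLC7A5: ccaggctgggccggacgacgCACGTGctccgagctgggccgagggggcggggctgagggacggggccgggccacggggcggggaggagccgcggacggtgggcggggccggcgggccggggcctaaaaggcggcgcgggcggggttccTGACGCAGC

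The tested members, a list chosen with earlier results of these data known, were more often higher than lower in OE. The carriers tested outside this list were few and mixed, so nothing is concluded here on amino acid carriers in general. Of 6 further plasma membrane carriers tested 1 was higher and 2 were lower. Of 7 further mitochondrial carriers 1 was higher and 3 were lower, and of 3 lysosomal and peptide carriers 1 was higher and 0 were lower. Among the 31 tested members 15 were higher at an adjusted p under 0.05 (48.4%, against 24.9% of all tested genes) and 5 were lower (16.1%, against 23.7%), while 11 passed neither. With the study's added threshold of a fold change above 2 or below 0.5, here named a call, 4 members were called higher (background 1.73%) and 1 was called lower (background 3.79%). In CPM, the count scaled to the TMM-adjusted library size, every OE sample was above every NC sample for 18 members (background 28.2%) and below for 8 (background 27.1%), and the groups overlapped for 5. The median log2 fold change of the 31 was 0.34, against -0.0032 over all tested genes. Without NC replicate 2 the counts were 14 higher and 4 lower, the calls stayed at 4 and 1 and the median was 0.30.

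**Figure D1:**
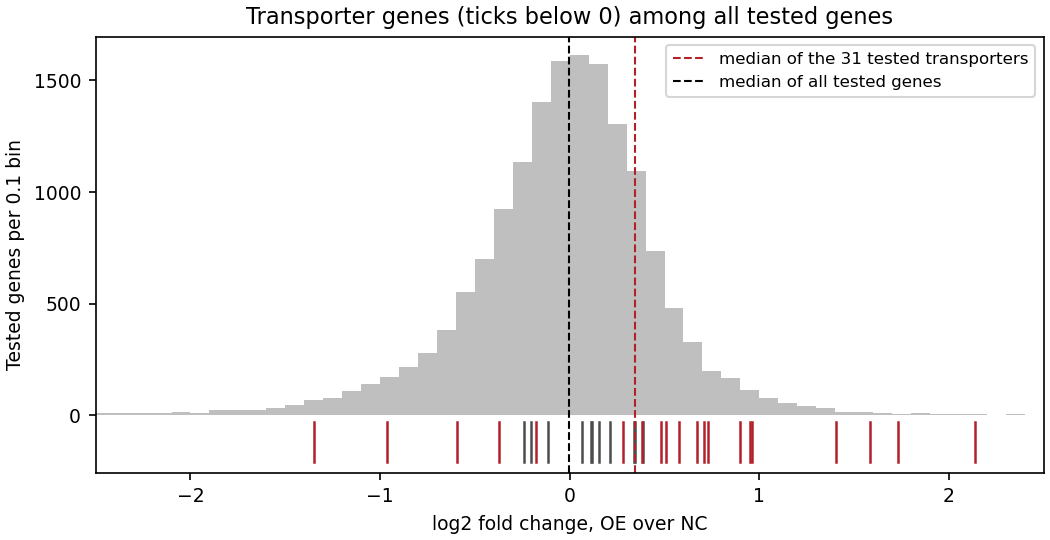
Distribution of the log2 fold change (OE over NC) of the 15878 tested genes in bins of 0.1, with a tick below the axis for each of the 31 tested carrier genes (red where the adjusted p was under 0.05, dark grey otherwise) and dashed lines at both medians. The carriers' median stands at 0.34 and that of all genes at -0.0032, and 26 genes below -2.5 and 11 above 2.5 lie outside the plot.

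The heavy chain SLC3A2 and its light chains SLC7A5 and SLC7A11 were 3 of the 4 members called higher. SLC3A2, which carries light chains to the plasma membrane, had CPM of 72.6, 69.6 and 67.4 in NC and 195.0, 180.4 and 179.4 in OE. The groups lay far apart relative to their spread, with a fold change of 2.65 (log2 1.40, SE 0.05, adjusted p = 1.2e-14). SLC3A2 lies on chromosome 11 from 62856004 to 62888880 (plus strand, GRCh38) and its exons overlap no other gene of GENCODE release 44.

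SLC7A5 encodes LAT1, the exchanger that brings in leucine and other large neutral amino acids. Its CPM was 29.4, 30.1 and 28.2 in NC and 88.8, 83.8 and 90.3 in OE. Each OE sample was well above each NC sample, the fold change was 3.00 (log2 1.58, SE 0.06) and the adjusted p of 5.7e-15 was the smallest of any member. The gene lies on chromosome 16 from 87830023 to 87869507 (minus strand) and shares exon sequence with the opposite-strand gene ENSG00000260466.

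SLC7A11 encodes xCT, which brings in cystine in exchange for glutamate and so feeds glutathione synthesis. Its CPM was 4.31, 4.83 and 4.48 in NC and 14.5, 13.8 and 16.9 in OE. All OE samples were far above NC, with a fold change of 3.32 (log2 1.73, SE 0.11, adjusted p = 3.2e-11). It lies on chromosome 4 from 138164097 to 138242349 (minus strand) and overlaps SLC7A11-AS1 on the other strand. By the study's methods the libraries were stranded, but whether the counting used strand is not given in the sources used here, so counts of overlapping genes are uncertain, which concerns 16 of the 37 members located, this gene among them.

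The remaining light chains did not pass the threshold. SLC7A6, which exchanges cationic against neutral amino acids, had a log2 fold change of -0.11 (95% interval -0.25 to 0.02, adjusted p = 0.15) although its OE values all lay below those of NC. SLC7A7, with a like function, had a value of 0.34 (interval -0.10 to 0.78, adjusted p = 0.19), or 0.40 without NC replicate 2. SLC7A8, the LAT2 light chain, had counts of 0, 8 and 10 in NC and 3 in each OE sample and was not tested. SLC3A1 and SLC7A9, the heavy and light chain of the cystine carrier of the kidney brush border, were near absent, with counts of 4, 3 and 1 against 0 in each OE sample for SLC3A1 and 0 in 5 samples and 2 in OE replicate 2 for SLC7A9.

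Levels of different genes can be set side by side in FPKM, which is scaled to length. The FPKM of SLC3A2 was 10.6, 9.89 and 9.74 in NC and 28.1, 26.4 and 26.6 in OE. The summed FPKM of the light chains SLC7A5, SLC7A6, SLC7A7, SLC7A8 and SLC7A11 came to 11.3 ± 0.218 (NC) and 23.6 ± 1.04 (OE) (SD, n = 3 each). The light chain FPKM per FPKM of SLC3A2 was thus 1.06, 1.17 and 1.14 in NC and 0.825, 0.866 and 0.933 in OE, with no overlap between the groups. An exact permutation test of 3 against 3 cannot give a two-sided p under 0.1, so no p is given for these ratios. SLC7A5 made up 50.1% ± 0.935 of the light chain sum in NC and 72.8% ± 1.07 of that in OE (SD, n = 3 each). The share of SLC7A6 went from 43.7% to 19.6% and that of SLC7A11 from 3.87% to 6.19%.

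**Figure D2:**
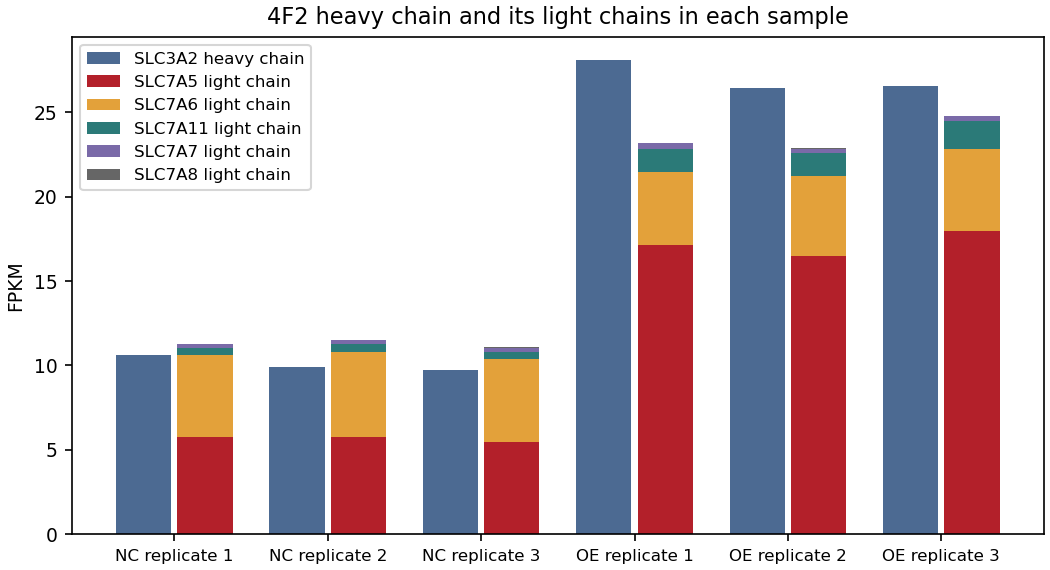
FPKM of the heavy chain SLC3A2 (blue bars) beside the stacked FPKM of 5 light chains in each of the 6 samples. The heavy chain bar is the shorter of each pair in NC and the taller in OE, and the SLC7A5 part is 49.3% to 51.1% of the light chain sum in NC and 72.0% to 74.1% in OE.

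In the SLC1 family the neutral amino acid carriers and the glutamate carriers differed in direction, the former higher and the latter lower in OE. SLC1A5, the glutamine carrier ASCT2, had CPM of 133.3, 131.8 and 137.2 in NC and 218.2, 225.9 and 212.9 in OE, a fold change of 1.63 (log2 0.71, SE 0.05, adjusted p = 1.9e-10). It had the highest FPKM of any member in both groups, at 37.1 ± 1.05 for NC and 61.4 ± 1.79 for OE (SD, n = 3 each). SLC1A4, the related carrier of serine, alanine and cysteine, had CPM of 15.4, 16.3 and 14.8 in NC and 25.6, 26.7 and 25.0 in OE. Its log2 fold change of 0.73 (SE 0.08, adjusted p = 8.0e-08) was near that of SLC1A5.

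SLC1A1, the glutamate and cysteine carrier EAAT3 of kidney and neurons, was the single member called lower. Its counts were 84, 96 and 101 in NC and 41, 29 and 47 in OE, or 2.41, 2.73 and 2.81 CPM against 1.11, 0.733 and 1.29. The groups did not overlap and NC was 2.54-fold above OE (log2 fold change -1.35, SE 0.22, adjusted p = 3.1e-05), and without NC replicate 2 the value was -1.32. SLC1A3, the glutamate carrier EAAT1, was lower too (log2 fold change -0.96, SE 0.29, adjusted p = 0.0091) at counts of 24 to 75. Its difference did not hold without NC replicate 2, the highest of the NC samples (-0.72, adjusted p = 0.077), nor without OE replicate 1 (-0.81, adjusted p = 0.0501) or OE replicate 2 (-0.77, adjusted p = 0.054), and it reached a call without NC replicate 1 (-1.07), NC replicate 3 (-1.05) or OE replicate 3 (-1.38). SLC1A2 had 2 reads in NC replicate 2, 1 in OE replicate 2 and 0 elsewhere.

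Both cationic amino acid carriers were higher. SLC7A1, the arginine and lysine carrier CAT1, had CPM of 32.2, 35.4 and 34.2 in NC and 65.0, 62.8 and 70.7 in OE. The groups were well separated, and the fold change of 1.95 (log2 0.96, SE 0.06, adjusted p = 5.6e-11) fell just short of a call and reached it without OE replicate 2 (log2 1.00). SLC7A2, the CAT2 gene, had counts of 29 to 52 in NC and 73 to 94 in OE, with a log2 fold change of 0.90 (SE 0.23, adjusted p = 0.0024). Without NC replicate 2, which held its lowest count, the value was 0.68 (adjusted p = 0.018), and it was called higher without NC replicate 1 (1.01) or NC replicate 3 (1.04).

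SLC6A9, the glycine carrier GlyT1, had the largest positive change of the members on few reads. Its counts were 14, 49 and 19 in NC and 138, 142 and 106 in OE, or 0.402, 1.39 and 0.528 CPM against 3.74, 3.59 and 2.92. All OE samples were above all NC samples, and NC replicate 2 was the highest of the control samples. The fold change was 4.40 (log2 2.14, SE 0.28, adjusted p = 2.3e-06), and without NC replicate 2 the log2 value was 2.87 (adjusted p = 1.3e-08). The gene lies on chromosome 1 from 43991500 to 44031467 (minus strand) and its exons overlap CCDC24 on the other strand.

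The other SLC6 carriers differed in direction. SLC6A15, a sodium-driven carrier of branched-chain amino acids and proline, was higher by 0.67 on the log2 scale (SE 0.07, adjusted p = 5.0e-08). SLC6A6, the taurine carrier, had CPM of 52.5, 51.6 and 46.9 in NC and 33.6, 30.7 and 35.8 in OE. It was lower in every OE sample (log2 fold change -0.59, SE 0.07, adjusted p = 3.7e-07), and part of its exons lies opposite GRIP2. SLC6A8, the creatine carrier, had a value of 0.11 (interval 0.0020 to 0.23 before adjustment, adjusted p = 0.086).

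**Figure D3:**
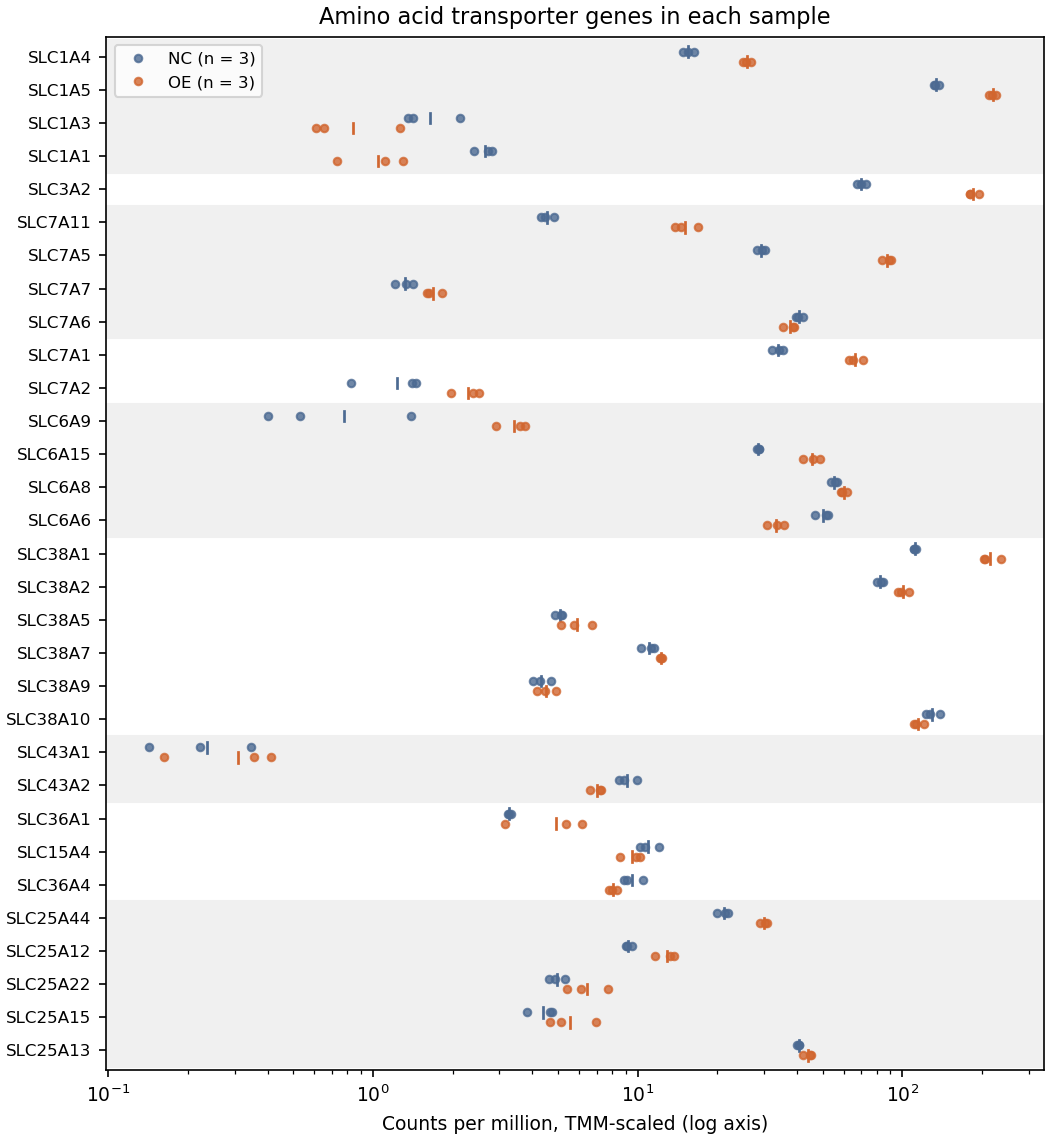
CPM (TMM-scaled, log axis) of each of the 31 tested carrier genes in the 3 NC (blue) and 3 OE (orange) samples, with vertical bars at the group means and grey bands separating the families. SLC3A2, SLC7A5, SLC7A11 and SLC6A9 show the widest gaps to the right, SLC1A1 the widest to the left, and SLC36A1 has 1 OE sample just left of its NC samples.

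Of the 6 tested SLC38 genes 2 were higher and 1 was lower, shares of 33.3% and 16.7% that are near the 24.9% and 23.7% of all tested genes. SLC38A1, the sodium-driven glutamine carrier SNAT1, had CPM of 110.3, 112.7 and 110.6 in NC and 205.6, 203.7 and 236.1 in OE. OE replicate 3 was the highest, and the fold change was 1.93 (log2 0.95, SE 0.06, adjusted p = 1.8e-11). SLC38A2, its paralog SNAT2, was higher by 0.28 on the log2 scale (SE 0.05, adjusted p = 1.5e-04). SLC38A10 had CPM of 138.9, 122.2 and 126.9 in NC and 110.4, 120.7 and 112.6 in OE. The highest OE sample lay just under the lowest NC sample (log2 fold change -0.18, SE 0.06, adjusted p = 0.013), and the difference did not pass without NC replicate 1 (adjusted p = 0.14) or OE replicate 1 (adjusted p = 0.075).

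SLC38A9, the lysosomal carrier that reports arginine to the growth kinase mTORC1, had CPM of 4.71, 4.01 and 4.25 in NC and 4.17, 4.45 and 4.93 in OE. The groups overlapped, and the log2 fold change of 0.06 (95% interval -0.21 to 0.34, adjusted p = 0.72) had an interval that ended below the value of SLC38A1. Without OE replicate 3 it was -0.0068. SLC38A5 (0.21, adjusted p = 0.17) and SLC38A7 (0.15, adjusted p = 0.15) also passed no threshold, and SLC38A4 had at most 3 reads in any sample.

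The SLC43 uniporters, which let branched-chain and aromatic amino acids pass without an exchange partner, had no member higher at an adjusted p under 0.05. SLC43A2 had CPM of 8.85, 8.495 and 9.90 in NC and 7.285, 7.18 and 6.58 in OE, lower in every OE sample (log2 fold change -0.37, SE 0.10, adjusted p = 0.0058). SLC43A1 had only 5 to 15 reads a sample (0.39, interval -0.61 to 1.39, adjusted p = 0.53), and its value ranged from 0.13 without NC replicate 2 to 0.76 without NC replicate 1. SLC16A10, a carrier of aromatic amino acids, had counts of 12, 22 and 2 in NC and 3, 8 and 1 in OE and was not tested.

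In the SLC36 and SLC15 families, SLC36A1 was higher (log2 fold change 0.57, SE 0.18, adjusted p = 0.014). Its OE samples were uneven, at 6.15, 3.16 and 5.37 CPM against 3.25 to 3.31 in NC, so that OE replicate 2 lay below every NC sample, and without OE replicate 1 the value was 0.38 (adjusted p = 0.12). SLC36A4 (-0.24, adjusted p = 0.056) and SLC15A4, a carrier of histidine and peptides (-0.20, adjusted p = 0.10), did not pass. For SLC36A4 the adjusted p was 0.028 with upper quartile normalization and 0.045 over protein-coding genes only, and with 1 sample left out it ran from 0.0496 (OE replicate 3) to 0.26 (NC replicate 2).

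Of the 5 mitochondrial carriers 3 were higher and 0 lower, against 24.9% and 23.7% of all tested genes. SLC25A44, which takes branched-chain amino acids into mitochondria, upstream of the pathway that *PPM1K* acts on, had CPM of 21.9, 21.4 and 19.97 in NC and 28.9, 30.4 and 30.7 in OE. Its groups did not overlap, with a fold change of 1.42 (log2 0.51, SE 0.07, adjusted p = 5.8e-06). SLC25A12, an aspartate and glutamate exchanger, was higher by 0.48 (SE 0.09, adjusted p = 2.2e-04), and its paralog SLC25A13 had a value of 0.12 (SE 0.06, adjusted p = 0.0995). The glutamate carrier SLC25A22 was higher by 0.38 (SE 0.14, adjusted p = 0.024), and lost the threshold without OE replicate 2, its highest sample (0.23, adjusted p = 0.20), without NC replicate 1 (adjusted p = 0.060) or without NC replicate 2 (adjusted p = 0.077). The ornithine carrier SLC25A15 had a value of 0.34 (adjusted p = 0.068). It ranged from 0.16 without OE replicate 1, its highest sample (adjusted p = 0.42), to 0.45 without OE replicate 3 (adjusted p = 0.017).

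**Figure D4:**
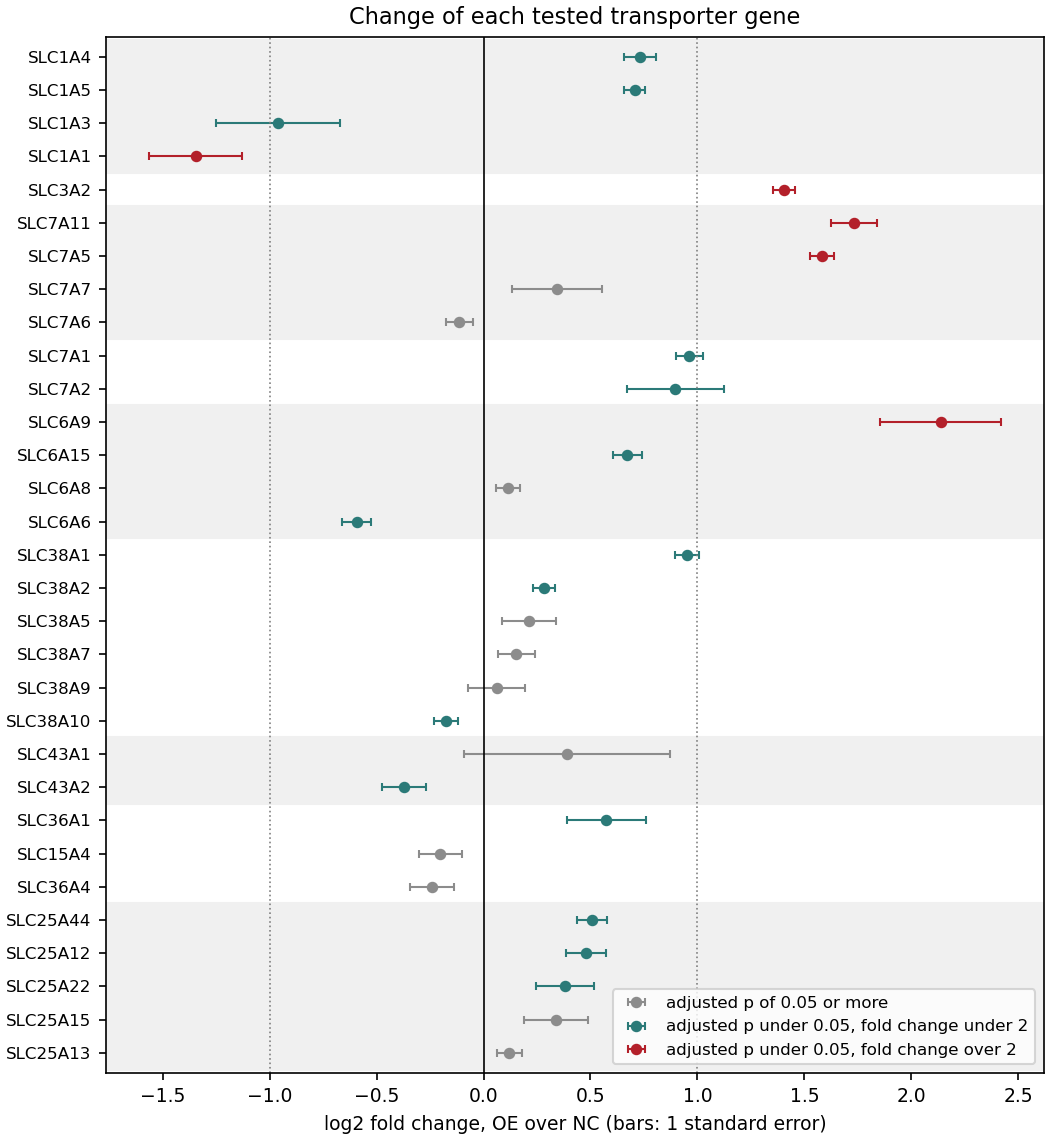
Log2 fold change (OE over NC) with 1 standard error for the 31 tested carriers, ordered by family, with dotted lines at fold changes of 2 and 0.5. Red marks the 5 calls, from SLC1A1 at -1.35 to SLC6A9 at 2.14, green the other 15 genes with an adjusted p under 0.05 and grey the 11 that did not pass.

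Read by substrate, the carriers of branched-chain amino acids were mixed. Of 8 such members (SLC7A5, SLC7A6, SLC7A7, SLC7A8, SLC43A1, SLC43A2, SLC6A15 and SLC25A44) 7 were tested, 3 were higher (42.9%, against 24.9% of all tested genes) and 1 was lower (14.3%, against 23.7%). Their median log2 fold change of 0.39 is the value of SLC43A1, which had 5 to 15 reads a sample (interval -0.61 to 1.39). It is therefore a weak summary of these genes.

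By FPKM the carriers ranged from SLC1A5 down to genes listed at 0. In NC SLC1A5 was followed by SLC38A10 at 15.1 ± 1.19, SLC38A2 at 11.7 ± 0.193, SLC38A1 at 10.2 ± 0.03, SLC3A2 at 10.1 ± 0.454 and SLC25A13 at 10.1 ± 0.127 (SD, n = 3 each), and the last 3 of these did not differ beyond their spread. In OE the order after SLC1A5 was SLC3A2 at 27.0 ± 0.913, SLC38A1 at 20.1 ± 1.94, SLC7A5 at 17.2 ± 0.741, SLC38A2 at 14.4 ± 0.843 and SLC38A10 at 13.5 ± 0.727 (SD, n = 3 each). SLC7A5 moved from rank 8 to rank 4, SLC3A2 from rank 5 to rank 2 and SLC38A10 from rank 2 to rank 6. Summed over the 36 members with a value, FPKM came to 141.7 ± 2.39 for NC and 215.2 ± 3.86 for OE (SD, n = 3 each). SLC1A5 alone made up 26.2% of that sum in NC and 28.5% in OE. An FPKM of at least 1 in every sample was reached by 18 of the 36, and 15 stayed below 1 in every sample.

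Of 20 plasma membrane carriers outside the 38, 6 could be tested, and 2 of these were called lower (background 3.79%) and 0 called higher (background 1.73%). At an adjusted p under 0.05, 1 was higher (16.7%, against 24.9% of all tested genes) and 2 were lower (33.3%, against 23.7%). The higher gene was SLC43A3, a purine base carrier of the SLC43 family (log2 fold change 0.71, SE 0.07, adjusted p = 9.1e-08). SLC6A20, a proline carrier, and SLC38A11 were called lower at counts of at most 31 (SLC6A20 -1.39, adjusted p = 0.0051; SLC38A11 -3.12, adjusted p = 7.8e-05). Of 7 tested mitochondrial carriers outside the 38, 1 was higher (14.3%) and 3 were lower (42.9%), and 0 were called. SLC25A38, a glycine carrier, was higher (0.38, adjusted p = 2.4e-04), and SLC25A29 (-0.38), SFXN2 (-0.52) and SFXN3 (-0.20) were lower. Of 3 tested lysosomal and peptide carriers 1 was higher (33.3%), the cystine exporter CTNS (0.36, adjusted p = 0.0094), and 0 were lower or called. The near-identical copy SLC6A10P had a mean count of 0.833, and the other copies listed were not analysed here.

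Genes of amino acid sensing by mTORC1, with those of mTORC1 itself, were mixed. Of 19 genes 7 were higher (36.8%) and 3 lower (15.8%), against 24.9% and 23.7% of all tested genes, with a median of 0.09. The highest was RRAGD, a Rag GTPase (0.65, SE 0.06, adjusted p = 3.2e-08), and SAR1B, a leucine sensor, was higher as well (0.55, adjusted p = 4.2e-06). CASTOR2, of the family of arginine sensors, was called lower, at CPM of 43.4, 40.5 and 47.2 in NC and 19.9, 21.1 and 17.5 in OE (log2 fold change -1.16, SE 0.08, adjusted p = 1.4e-10).

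In a list of glutathione genes, 5 of 9 tested were higher (55.6%, against 24.9% of all tested genes) and 2 were lower (22.2%, against 23.7%). The list mixes synthesis, which the cystine brought in by SLC7A11 feeds, with breakdown, so these shares do not describe synthesis alone. Higher were CTH, CBS, CHAC1, CHAC2 and GSS (0.17, adjusted p = 0.0083), and lower were GGT1 and GSR (-0.25, adjusted p = 0.0025). For CBS (0.39, adjusted p = 0.035) the groups overlapped, with OE replicate 3 at 3.88 CPM inside the NC range of 3.61 to 3.92. CTH, which makes cysteine from cystathionine, was called higher, at 3.07, 2.81 and 3.42 CPM in NC and 7.69, 8.40 and 8.53 in OE (log2 fold change 1.40, SE 0.12, adjusted p = 8.7e-09). CHAC1, which degrades glutathione, was called higher (1.07, SE 0.17, adjusted p = 2.7e-05), and GGT1, which cleaves it outside the cell, was called lower (-1.09, SE 0.29, adjusted p = 0.0034). The GGT1 call rests on few reads, with counts of 45, 60 and 38 in NC and 21, 21 and 29 in OE. NC replicate 2 was its highest sample. The limiting enzyme subunits GCLC (0.12, adjusted p = 0.21) and GCLM (-0.02, adjusted p = 0.88) passed no threshold.

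The calls on strongly expressed carriers changed little with the processing. Those on weak ones depended, in the fits on FPKM, on the filter and on the constant added. In all 7 other fits on the counts of all 6 samples and in the 6 fits with 1 sample left out, each of the 5 called members was called again. On log2(FPKM + 1) without a filter, where a constant of 1 compresses low values, SLC6A9 (0.51), SLC7A11 (0.78) and SLC1A1 (-0.37) were not called. The filtered fits on FPKM did not test SLC6A9 and SLC1A1. In these, SLC7A11 was called on log2(FPKM + 0.1) (1.54) and not on log2(FPKM + 1).

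**Figure D5:**
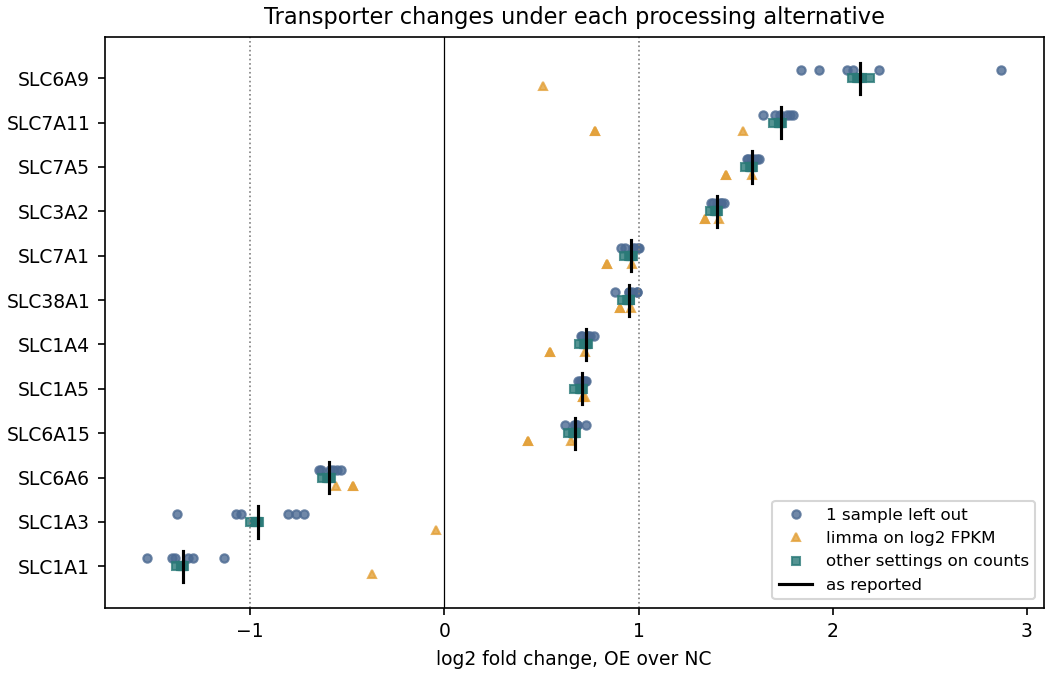
Log2 fold change (OE over NC) of 12 carriers as reported (black line) and under each alternative, with 1 sample left out (blue circles), other settings on counts (green squares) and limma on log2 FPKM (orange triangles), and dotted lines at fold changes of 2 and 0.5. SLC7A5 and SLC3A2 stay above a fold change of 2 throughout, and SLC6A9 spans 0.51 to 2.87.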

How the data were processed

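RNA sequencing of 6 HK-2 samples, 3 NC and 3 OE, was analysed. Groups came from the genotype entries and replicate numbers from the titles. The authors made stranded libraries, trimmed the reads, used HISAT2 for alignment to GRCh38 and counted the reads that mapped to 1 place, and the deposited count table holds these raw counts per gene. The deposited FPKM values were computed by the authors from the same reads, scaled to gene length and mapped fragments. The labels also list mm10, which was not used here. The annotation, the counting program and the use of strand are not given in the sources used here.

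From the counts, edgeR 4.0.16 in R 4.3.3 was run with filterByExpr, TMM scaling and the quasi-likelihood F-test over all 6 samples, adjusted by Benjamini-Hochberg over the 15878 genes tested. Calls needed an adjusted p under 0.05 with a fold change over 2 or under 0.5. The standard error is the log2 fold change divided by the root of F, and intervals are 95% and unadjusted. DESeq2 1.42.0 and limma 3.58.1 on log2 FPKM, with pseudocounts of 1 and 0.1, were alternatives, beside other normalizations and filters, protein-coding genes only, the replicate number as a block and each sample left out. Replicates of a group differed by more than sampling noise (mean chi-square per gene 5.12 to 11.7) and none were copies. The largest values were those of OE replicate 3 against OE replicate 1 (11.7) and OE replicate 2 (10.6). Between OE replicates 1 and 2 the value was 6.00, and in NC it was 5.12 to 7.13. Gene positions and overlaps came from GENCODE release 44 and promoter sequences from RefSeq. The scripts were tested on simulated data.

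The members and all gene lists were chosen with earlier results of these data known. Values in every sample are given for called members, for the 3 largest rises and 3 largest falls among other members past the threshold whose mean count reached 100, and for SLC3A2, SLC7A5, SLC7A11, SLC1A5, SLC25A44, SLC38A9 and *PPM1K*. Values of SLC36A1 in every sample, and the mention of single genes beyond the called and the 3 smallest adjusted p of a list, were chosen after they were seen. Counting error at these totals is small for members with a mean count above 100 and limits those below. Some single values are not reported here.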

Additional observations from a re-analysis of the deposited data

How the results depend on the processing

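With edgeR on counts the 31 tested members gave 4 called higher, 1 called lower, 15 higher, 5 lower and a median log2 fold change of 0.34. Members called lower were 2 with upper quartile normalization (SLC1A3 added) and 2 with no filter on low counts (SLC16A10 added), and 0 in all 3 limma fits on log2 FPKM. Members called higher were 2 in limma on log2(FPKM + 1) with or without a filter on low values. Members lower at an adjusted p under 0.05 were 1 in limma on log2(FPKM + 1), 1 on log2(FPKM + 0.1) and 2 without the filter. The filtered limma fits tested 21 members, since SLC1A1, SLC1A3 and SLC6A9 among others had no FPKM of at least 1 in 3 samples. The median was 0.305 with upper quartile normalization, 0.301 with DESeq2, 0.283 with no filter, 0.279 in limma on log2(FPKM + 1) and 0.124 in the same fit without a filter. The median of all genes moved to -0.13 in the DESeq2 and unfiltered count fits.

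With 1 sample left out, members called higher ranged from 4 to 5, called lower from 1 to 3, higher from 14 to 16, lower from 3 to 6 and the median from 0.292 to 0.379. The 3 called lower without NC replicate 3 were SLC1A1, SLC1A3 and SLC16A10, SLC16A10 was also called without OE replicate 2, and the value of 3 lower came without OE replicate 1. SLC38A9 ranged from -0.0068, without OE replicate 3, to 0.133. SLC25A22 did not pass with DESeq2 (adjusted p = 0.060). The replicate numbers did not pair the samples (correlations of same-numbered deviations -0.0032, -0.066 and -0.054), and with the replicate block the counts were again 4, 1, 15 and 5, with a median of 0.343, so it changed no call. The depth limits carriers with a mean count under 100, SLC6A9, SLC1A1, SLC1A3 and SLC7A2 among them.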
